A study of Mus musculus with 7 samples.

Results

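The values of 44 type I interferon stimulated genes were taken from RNA-seq of sorted retinal microglia (rMG), out of 40743 genes in the table. A gene was a member if its symbol equalled one of 44 names, and each name was found once. The 7 libraries came from Irf8 KO mice with the genotype Irf8-/- Cx3cr1GFP/+, bred on a C57BL/6J background without the Crb1 mutation. By the labelled genotype all of them lacked functional Irf8, a transcription factor of the interferon regulatory family that microglia need for their identity, and carried GFP in 1 Cx3cr1 allele. Unlasered mice gave 3 of the libraries, and 4 were prepared 7 days after laser treatment, the model of choroidal neovascularisation (CNV), in which burns through Bruch's membrane let choroidal vessels grow under the retina. Each library held about 10000 cells sorted as CD45lowCD11b+Cx3cr1GFP/+Ly6C-Ly6G- from 3 to 4 pooled mice, so that a library is a pool and not an animal. From the lasered mice only the central 70% of the retina was used, so laser injury and the part of the retina sampled cannot be told apart. By the study's text the unlasered mice were adult, an exact age is not used here, and the wild-type libraries were not analysed here.

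Type I interferons are antiviral cytokines that signal through a shared receptor and the JAK-STAT pathway to a transcription factor complex that binds the interferon stimulated response element in promoters. The genes switched on in this way, the interferon stimulated genes, encode sensors of foreign RNA and DNA, enzymes that stop translation or degrade RNA, and regulators that feed back on the pathway. Microglia, the resident macrophages of the retina, carry the receptor and can respond with these genes to infection, injury and neurodegeneration.

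The libraries held 20427558 to 36022954 reads in the unlasered group and 37133297 to 45919042 reads in the lasered group, and no member had fewer than 35 reads in any library. Levels are given as CPM (reads of a gene relative to the total reads of its library), always in the order of libraries 1 to 3 for unlasered and 1 to 4 for lasered mice. The targeted gene, Irf8, was listed jointly with the overlapping Gm20388, at 530, 489 and 507 CPM in the unlasered and 463, 465, 475 and 582 CPM in the lasered libraries, so the genotype rests on the labels. The 8 microglia markers summed to 19760.2 to 23556 CPM in the unlasered and 18076 to 24189.7 CPM in the lasered libraries. In the sums of other cell types, 8 rod photoreceptor genes had 1508, 14896 and 4342 CPM in the unlasered and 778, 333, 621 and 224 CPM in the lasered libraries, and all 8 were called lower. The 5 monocyte genes summed to 61.6, 21.4 and 66.6 CPM in the unlasered and 134, 182, 32.8 and 11.3 CPM in the lasered libraries, and the 6 dendritic cell genes to 48.2, 24.2 and 70.5 CPM and 191, 200.2, 53.7 and 40.4 CPM. Of the monocyte genes, Ccr2 had 5.63, 6.37 and 14.2 CPM in the unlasered and 81.5, 128, 19.7 and 7.57 CPM in the lasered libraries. Chil3 had 6.36, 3.94 and 3.69 CPM in the unlasered and 17.7, 9.53, 1.02 and 0 CPM in the lasered libraries, while Plac8, the main part of the unlasered sum in libraries 1 and 3, had 47.0, 9.78 and 45.6 CPM in the unlasered and 27.3, 39.6, 10.6 and 3.58 CPM in the lasered libraries. Ly6c2 stayed at or below 0.891 CPM in every library. Of the dendritic cell genes, Ccr7 had 4.16, 0.263 and 0.0278 CPM in the unlasered and 74.8, 68.5, 5.34 and 3.10 CPM in the lasered libraries. Cd209a had 0.0979, 0 and 0.0833 CPM in the unlasered and 7.61, 8.93, 2.87 and 0.242 CPM in the lasered libraries. Xcr1 and Zbtb46 of the same list had folds of means of 0.598 and 1.02, and no gene of either list was called. Lasered libraries 1 and 2 stood apart from lasered libraries 3 and 4 in the summed monocyte and dendritic cell levels. The summed levels of the remaining lists were 421 to 778 CPM in the unlasered and 166 to 477 CPM in the lasered libraries for 5 Müller glia and astrocyte genes (of which Gfap alone was called, and higher, at 0, 0 and 1.53 CPM in the unlasered and 3.87, 2.18, 3.79 and 2.85 CPM in the lasered libraries), 15.8 to 58.4 CPM in the unlasered and 13.4 to 28.8 CPM in the lasered libraries for 6 endothelial genes, 11.6 to 17.0 CPM in the unlasered and 13.1 to 16.9 CPM in the lasered libraries for 5 pigment epithelium genes, 0.526 to 11.1 CPM in the unlasered and 0.501 to 8.13 CPM in the lasered libraries for 5 neutrophil genes and 0.139 to 0.538 CPM in the unlasered and 0.0808 to 1.59 CPM in the lasered libraries for 5 T and NK cell genes. Of the Müller glia and astrocyte genes, Slc1a3 had 580, 197 and 386 CPM in the unlasered and 139, 270, 15.5 and 65.7 CPM in the lasered libraries. The folds of means of Slc1a3, Glul, Rlbp1 and Aqp4 were 0.316, 0.942, 0.734 and 0.120, and none of them was called. In 4 plasmacytoid dendritic cell genes, among them the member Bst2 and the microglial Siglech, the sums were 1168 to 1348 CPM in the unlasered and 1029 to 1275 CPM in the lasered libraries.

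Did laser injury change the interferon stimulated genes of rMG from mice labelled Irf8 KO? All 44 members had a positive log2 fold change of lasered over unlasered libraries, against 48.4% of the 17496 genes tested. Of the 44 members, 15 rose at an adjusted p under 0.05 (limma on log2(CPM + 1), Benjamini-Hochberg over all genes tested), whereas 3.86% of all genes were called higher. No member was called lower, against 3.07% of all genes, and 29 of the 44 had an unadjusted p under 0.05 with a positive change, against 11% of all genes. The largest rises were those of Ifi27l2a, Oas3 and Isg20, with log2 fold changes of 1.93, 1.90 and 1.69, which differed by less than their SE of 0.35, 0.40 and 0.26. The median log2 fold change over the members was 0.77, with a range from 0.09 for Oas1b to 1.93 for Ifi27l2a, and the median over all genes tested was -0.014. In 24 members every lasered library lay above every unlasered library, which was the case for 10.4% of all genes, and the groups overlapped in the other 20. The p-values measure the spread between libraries of pooled mice. In bulk libraries, fewer cells of a type and less RNA per cell cannot be told apart.

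**Figure D1:**
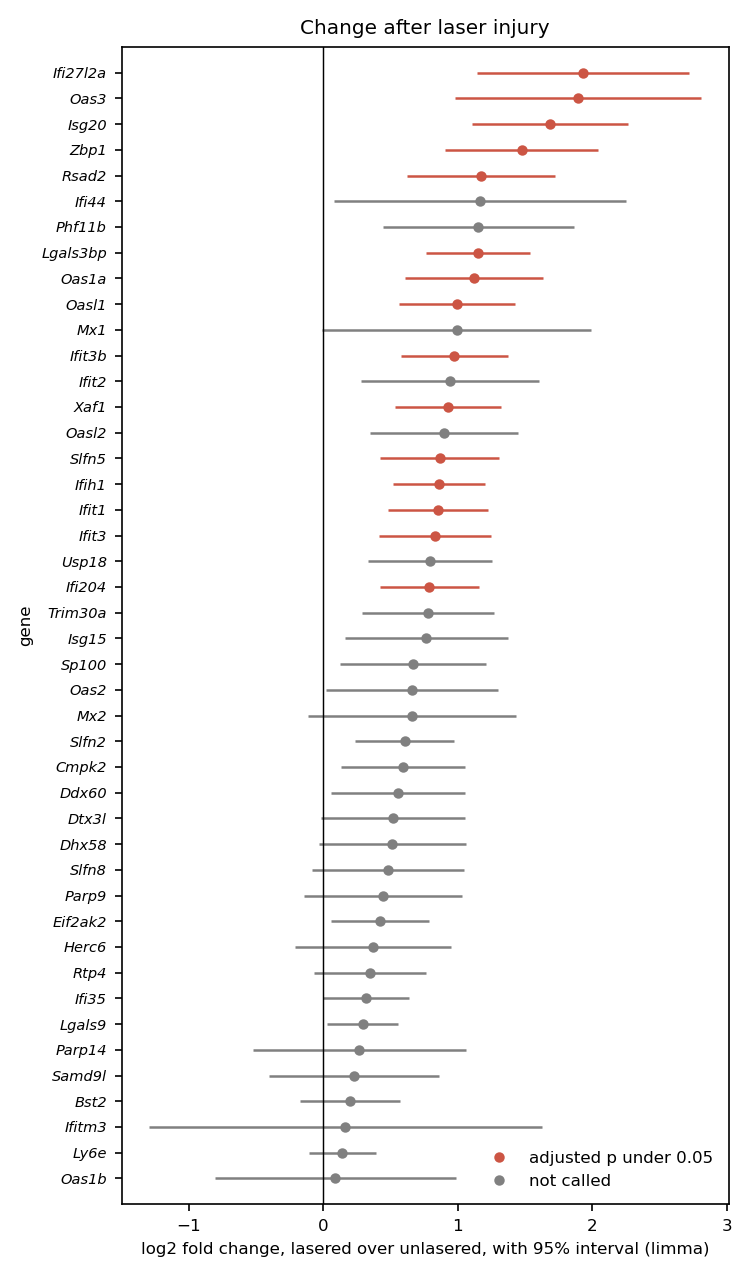
Log2 fold change of the 44 genes, lasered over unlasered Irf8 KO rMG (x axis, log2(CPM + 1) scale), with the 95% interval from limma as a bar. All 44 points lie right of 0, and the 15 genes with an adjusted p under 0.05 are in red.

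The count depended on which libraries were used. With lasered library 1 left out 4 members were called higher (1.14% of all genes), without lasered library 2 there were 2 (0.872%), without lasered library 3 there were 6 (1.61%), and without unlasered library 2 there were 7 (2.11%). Isg20 and Lgals3bp were called in each of these 4 fits. With both lasered libraries 1 and 2 left out, a fit added after the data were seen, no member was called higher by limma, and only 10 of all 16807 genes tested were (0.0595%). In that fit 18 members had an unadjusted p under 0.05 with a positive change, against 5.35% of all genes, and Ifitm3 had one with a negative change (log2 fold change -0.96). In the same fit 42 of the 44 log2 fold changes were positive, and their median was 0.50. On whole reads recovered from the CPM values, edgeR called 19 members higher (3.78% of all genes) and DESeq2 25 (6.73% of all genes), and both counts included all 15 called by limma. Over 16 alternative fits, the 15 members were called in 7 (Slfn5) to 14 (Isg20 and Lgals3bp).

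Of the 44 members, 31 had a promoter entry in RefSeq (GRCm38.p6), each entry a window of 300 bases from 250 before to 50 after the transcription start, and together these gave 37 windows. The core of the interferon stimulated response element, GAAANNGAAA searched on both strands, was present in 19 of the 37 windows (51.4%), against 3.44% of 32851 windows of the same length. The ETS-IRF composite element GGAANNGAAA, the kind of site that IRF8 binds together with PU.1, was found in 6 member windows (16.2%) and in 2.72% of all windows. These 6 windows belonged to 5 members, since the 2 windows of Sp100 overlap, and none of the 5 was called. The gamma activated site TTCNNNGAA, known from the type II interferon response, was found in 7 member windows (18.9%) and in 8.30% of all windows. A single stretch can hold letters of more than 1 of these patterns. Among the 15 called members, 8 of the 12 with a window had a response element core, and among the other 29, 9 of the 19 with a window. A match describes the letters only. The stretches below, each upstream of the annotated start and written 5′ to 3′ in the direction of the gene, show the core in capitals for 5 members that rose (Ifit1, Ifit3, Ifit3b, Oas3 and Rsad2) and for 2 that were not called (Isg15 and Bst2).
Ifit1, chr19:34640779-34640838, plus strand: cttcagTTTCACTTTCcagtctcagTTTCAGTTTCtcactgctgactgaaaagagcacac
Ifit3, chr19:34583382-34583441, plus strand: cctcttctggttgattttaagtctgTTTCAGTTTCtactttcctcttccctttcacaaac
Ifit3b, chr19:34607778-34607837, plus strand: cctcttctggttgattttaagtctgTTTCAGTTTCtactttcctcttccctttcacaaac
Oas3, chr5:120777700-120777759, minus strand: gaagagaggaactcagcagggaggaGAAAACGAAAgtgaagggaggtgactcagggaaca
Rsad2, chr12:26456538-26456597, minus strand: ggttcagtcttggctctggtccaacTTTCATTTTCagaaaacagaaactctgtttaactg
Isg15, chr4:156200850-156200909, minus strand: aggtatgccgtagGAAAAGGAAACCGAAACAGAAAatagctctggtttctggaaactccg
Bst2, chr8:71537562-71537621, minus strand: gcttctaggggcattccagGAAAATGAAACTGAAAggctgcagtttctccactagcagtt
Ifit1 and Bst2 held 2 matches in the stretch shown and Isg15 held 3, and in Bst2 and Isg15 these overlapped. The 60 bases shown for Ifit3 and Ifit3b were identical, although the genes lie at different positions of chromosome 19.

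Positions of genes are those of GENCODE M21 (GRCm38). Among the IFIT proteins, which bind viral RNA with an unusual 5′ end and block its translation, 3 of 4 members rose. Ifit1 (ENSMUSG00000034459, chromosome 19, 34640871 to 34650009), which recognises RNA caps without methylation, was measured at 122, 109 and 104 CPM in the unlasered and 237, 186, 238 and 159 CPM in the lasered libraries, and rose by 0.86 ± 0.16 (log2 fold change ± SE, limma, adjusted p = 0.0211). Ifit3 (ENSMUSG00000074896, chromosome 19, 34583531 to 34588731), a binding partner of IFIT1, stood at 236, 202 and 170.3 CPM in the unlasered and 418, 384, 392 and 262 CPM in the lasered libraries, a log2 fold change of 0.83 ± 0.18 (limma, adjusted p = 0.0336). For Ifit3b (ENSMUSG00000062488, chromosome 19, 34607970 to 34613401), a near copy of Ifit3, levels were 135, 107 and 96.9 CPM in the unlasered and 247, 223, 256 and 169.7 CPM in the lasered libraries, and the log2 fold change was 0.98 ± 0.18 (limma, adjusted p = 0.0173). The groups did not overlap in these 3 genes, and lasered library 4 was the lowest of the lasered libraries in each. Windows of 50 bases that also occur in another gene made up 51.2% of Ifit3 and 45.0% of Ifit3b, almost all of them shared between the pair, so how their reads were split is uncertain. Ifit2 ranged over 48.8 to 78.3 CPM in the unlasered and 74.3 to 175 CPM in the lasered libraries, with a log2 fold change of 0.94 that did not pass the test (limma, adjusted p = 0.0924), and its lasered library 4 lay within the unlasered range.

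Of 7 members from the oligoadenylate synthetase family and the exonuclease ISG20, 4 rose. The synthetases sense double-stranded RNA and make the adenylate chains that switch on RNase L. Oas3 (ENSMUSG00000032661, chromosome 5, 120753098 to 120777661), the longest enzyme of the family, had 5.87, 11.1 and 17.6 CPM in the unlasered and 75.9, 47.4, 32.6 and 26.5 CPM in the lasered libraries, a 3.96-fold difference of means, and rose by 1.90 ± 0.40 (log2 fold change ± SE, limma, adjusted p = 0.0298). Its lasered levels fell into no tight group, the level of library 1 being 2.86 times that of library 4, yet each was above every unlasered library. Oas1a (ENSMUSG00000052776, chromosome 5, 120896256 to 120907521) stood at 45.2, 49.0 and 48.8 CPM in the unlasered and 135, 136, 92.3 and 71.1 CPM in the lasered libraries, a log2 fold change of 1.12 ± 0.23 (limma, adjusted p = 0.0251). The unlasered libraries of Oas1a lay close together and the 4 lasered ones were all higher, but 57.6% of its 50-base windows also occur in its paralogue Oas1g, so the reads cannot be assigned to Oas1a alone. Oasl1 (ENSMUSG00000041827, chromosome 5, 114923240 to 114937915), a family member without synthetase activity that restrains translation of Irf7 mRNA, was measured at 23.7, 22.5 and 22.0 CPM in the unlasered and 56.9, 47.9, 51.3 and 32.9 CPM in the lasered libraries, a log2 fold change of 0.99 ± 0.19 (limma, adjusted p = 0.0214). Isg20 (ENSMUSG00000039236, chromosome 7, 78913424 to 78920396), an exonuclease that degrades single-stranded RNA, was low in the unlasered group with 5.14, 4.03 and 4.00 CPM and reached 20.3, 23.2, 12.4 and 11.9 CPM in the lasered libraries. The rise of Isg20 was 1.69 ± 0.26 (log2 fold change ± SE, limma, adjusted p = 0.0106), and libraries 1 and 2 were the higher pair among the lasered libraries.

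Oasl2, a second synthetase-like gene, had 128, 129.8 and 157 CPM in the unlasered and 366, 308, 234 and 167 CPM in the lasered libraries. The groups of Oasl2 did not overlap, yet its log2 fold change of 0.90 ± 0.24 (limma, adjusted p = 0.0618) missed the threshold. Oas2 spanned 14.8 to 29.8 CPM in the unlasered and 23.3 to 44.6 CPM in the lasered libraries (log2 fold change 0.66), and Oas1b, in which C57BL/6 mice carry a premature stop codon, spanned 1.76 to 4.55 CPM in the unlasered and 1.24 to 5.30 CPM in the lasered libraries (0.09). Neither was called, and both overlapped between groups. The sign of Oas1b turned negative when unlasered library 1, lasered library 1 or lasered library 2 was left out.

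Genes that sense nucleic acids or stop translation counted 6 members, of which 3 rose. Zbp1 (ENSMUSG00000027514, chromosome 2, 173206612 to 173218923), a sensor of Z-form nucleic acids that can start necroptosis, had 34.0, 31.9 and 46.3 CPM in the unlasered and 146, 123, 97.2 and 68.5 CPM in the lasered libraries, which is 2.90-fold between means, and rose by 1.48 ± 0.25 (log2 fold change ± SE, limma, adjusted p = 0.0147). Ifih1 (ENSMUSG00000026896, chromosome 2, 62595798 to 62646255), which encodes the sensor of long double-stranded RNA called MDA5, stood at 34.9, 40.5 and 44.6 CPM in the unlasered and 85.5, 70.9, 75.2 and 63.2 CPM in the lasered libraries, a log2 fold change of 0.86 ± 0.15 (limma, adjusted p = 0.016). Ifi204 (ENSMUSG00000073489, chromosome 1, 173747293 to 173766943), a DNA-binding protein of the p200 family, was measured at 144, 118 and 138 CPM in the unlasered and 272, 228, 256 and 177 CPM in the lasered libraries, a log2 fold change of 0.79 ± 0.16 (limma, adjusted p = 0.0276). In all 3 the lowest lasered library exceeded the highest unlasered one, although 20.0% of the 50-base windows of Ifi204 occur in other genes, most often its neighbour Ifi211. Eif2ak2, the kinase PKR that phosphorylates the initiation factor eIF2, had 26.7, 19.9 and 27.6 CPM in the unlasered and 32.0, 32.1, 37.7 and 31.1 CPM in the lasered libraries. The Eif2ak2 groups did not overlap, but the log2 fold change of 0.42 ± 0.16 (limma, adjusted p = 0.158) was not called. Dhx58, which encodes the regulator LGP2, ranged over 26.5 to 42.1 CPM in the unlasered and 34.2 to 68.2 CPM in the lasered libraries and the helicase gene Ddx60 over 38.1 to 67.6 CPM in the unlasered and 60.7 to 94.0 CPM in the lasered libraries, with log2 fold changes of 0.51 and 0.55 and overlapping groups.

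**Figure D2:**
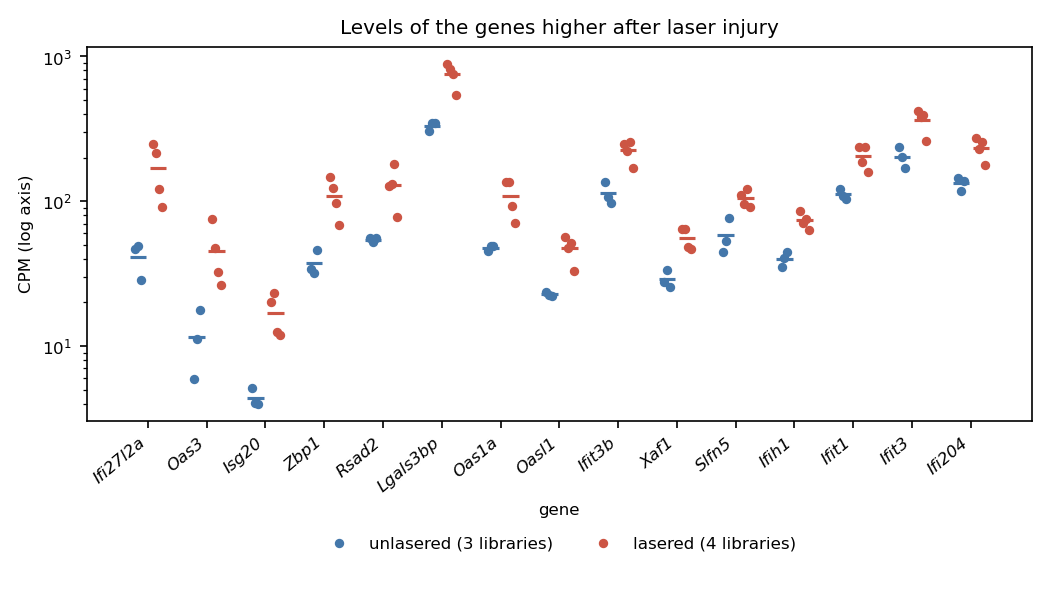
Level in CPM (log axis) of the 15 genes with an adjusted p under 0.05, with 1 point per library and a bar at the group mean, for 3 unlasered (blue) and 4 lasered (red) libraries. In each of the 15 genes all red points lie above all blue points.

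At the viperin locus on chromosome 12, where Rsad2 and Cmpk2 lie next to each other on opposite strands, 1 of 2 members rose. Rsad2 (ENSMUSG00000020641, chromosome 12, 26442746 to 26456452) encodes viperin, which makes a chain-terminating nucleotide from CTP, and had 55.6, 52.0 and 55.4 CPM in the unlasered and 128, 131, 180.3 and 77.2 CPM in the lasered libraries. The rise of Rsad2 was 1.17 ± 0.24 (log2 fold change ± SE, limma, adjusted p = 0.0279), with lasered library 3 as the highest. Its neighbour Cmpk2, a mitochondrial nucleotide kinase that supplies CTP, spanned 34.6 to 44.7 CPM in the unlasered and 43.7 to 76.5 CPM in the lasered libraries, with a log2 fold change of 0.59 ± 0.20 (limma, adjusted p = 0.122). Only lasered library 4 of Cmpk2 lay within the unlasered range. The dynamin-like GTPases that trap viral capsids, Mx1 and Mx2, were at the low end of the list. Mx1, which carries a deletion in most laboratory strains including C57BL/6, spanned 1.71 to 5.66 CPM in the unlasered and 2.56 to 10.2 CPM in the lasered libraries, and Mx2 spanned 1.28 to 5.78 CPM in the unlasered and 4.04 to 6.04 CPM in the lasered libraries. Their log2 fold changes of 0.99 and 0.66 were not called, the groups overlapped, and the annotation lists Mx2 and Oas1b as polymorphic pseudogenes.

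The 3 members of ISG15 conjugation had positive changes that missed the threshold. Isg15, a ubiquitin-like protein that is attached to newly made proteins, stood at 28.8, 31.3 and 23.4 CPM in the unlasered and 69.2, 61.0, 38.6 and 31.8 CPM in the lasered libraries. Usp18, which removes ISG15 and also blocks the type I interferon receptor, was measured at 32.9, 33.8 and 25.7 CPM in the unlasered and 58.2, 70.1, 52.4 and 39.1 CPM in the lasered libraries. Neither Isg15 nor Usp18 overlapped between groups, but the log2 fold changes were 0.77 ± 0.27 (limma, adjusted p = 0.125) and 0.79 ± 0.21 (limma, adjusted p = 0.0521), respectively. Herc6, the mouse ligase for ISG15, spanned 16.3 to 29.9 CPM in the unlasered and 19.2 to 35.6 CPM in the lasered libraries with a log2 fold change of 0.37, and its groups overlapped.

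Levels were compared between genes after division by exon length. Per kilobase of exon, Ly6e had 585 CPM as a mean over all libraries, Lgals9 323, Ifi27l2a 248, Bst2 223 and Lgals3bp 201, and these 5 led the list on that scale. The order differed between the groups. Ifi27l2a had 89.2 CPM per kilobase in the unlasered libraries, where it ranked 7, and 366 in the lasered libraries, where it ranked 2. Bst2 stood above Lgals3bp in the unlasered libraries, at 207 against 117 CPM per kilobase, and below it in the lasered libraries, at 235 against 264. Lgals3bp ranked 4 in both groups, and Bst2 ranked 3 in the unlasered and 5 in the lasered libraries. Ifit3 ranked 5 in the unlasered and 6 in the lasered libraries. Without division by length the leading 5 by mean CPM were Ly6e, Lgals9, Lgals3bp, Ifit3 and Rtp4. Lgals3bp (ENSMUSG00000033880, chromosome 11, 118392751 to 118402092), a secreted glycoprotein that binds galectins, had 306, 347 and 346 CPM in the unlasered and 887, 817, 762 and 538 CPM in the lasered libraries, a 2.26-fold difference of means. It rose by 1.15 ± 0.17 (log2 fold change ± SE, limma, adjusted p = 0.0097), the lowest adjusted p among the members, and each lasered library lay well above the unlasered ones. Lgals9, which encodes galectin-9, had 679.6, 622 and 535 CPM in the unlasered and 735, 767, 791 and 697 CPM in the lasered libraries. The Lgals9 groups did not overlap either, with a smaller log2 fold change of 0.29 ± 0.12 (limma, adjusted p = 0.174).

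Ly6e, a lipid-anchored surface protein that restricts coronaviruses, was measured at 2168, 2169 and 1924 CPM in the unlasered and 2408, 2426, 2395 and 2003 CPM in the lasered libraries. Its log2 fold change of 0.14 ± 0.11 (limma, adjusted p = 0.498) had a 95% interval from -0.11 to 0.39. Lasered library 4 was the one low value among the lasered libraries of Ly6e. Bst2, the tetherin that holds budding virus at the cell surface, spanned 146 to 225 CPM in the unlasered and 181 to 235 CPM in the lasered libraries (log2 fold change 0.20, 95% interval -0.18 to 0.57). Ifitm3, which blocks virus fusion in endosomes, spanned 29.6 to 73.9 CPM in the unlasered and 19.1 to 144 CPM in the lasered libraries (log2 fold change 0.17, 95% interval -1.29 to 1.62). In Ifitm3 lasered libraries 1 and 2 lay above and lasered library 4 below every unlasered library, and its sign turned negative when lasered library 1, lasered library 2 or unlasered library 2 was left out. None of the 3 membrane proteins was called.

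In the Schlafen family, regulators of growth and of tRNA, and the growth inhibitor Samd9l, 1 of 4 members rose. Slfn5 (ENSMUSG00000054404, chromosome 11, 82951349 to 82964840), a nuclear Schlafen protein, stood at 44.6, 53.4 and 76.8 CPM in the unlasered and 110.2, 95.7, 122 and 91.7 CPM in the lasered libraries, and rose by 0.87 ± 0.20 (log2 fold change ± SE, limma, adjusted p = 0.0348). Slfn2, which keeps T cells quiescent and protects tRNA, was measured at 148, 129 and 114 CPM in the unlasered and 204, 243, 194 and 159.8 CPM in the lasered libraries. The Slfn2 groups did not overlap, with a log2 fold change of 0.61 ± 0.16 (limma, adjusted p = 0.0581). Slfn8 spanned 77.9 to 159 CPM in the unlasered and 112 to 159 CPM in the lasered libraries and Samd9l 55.0 to 131 CPM in the unlasered and 78.7 to 112 CPM in the lasered libraries, with log2 fold changes of 0.48 and 0.23, and in both of them unlasered library 3 was far above the other unlasered libraries.

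Among nuclear proteins and TRIM proteins, 0 of 3 members passed the test in limma, and all 3 had an unadjusted p under 0.05. Phf11b, which encodes a PHD finger protein, had 20.5, 18.9 and 16.3 CPM in the unlasered and 69.0, 51.7, 38.0 and 23.5 CPM in the lasered libraries. Sp100, a component of PML nuclear bodies, had 71.0, 65.4 and 75.4 CPM in the unlasered and 151, 149, 94.1 and 75.9 CPM in the lasered libraries. In Phf11b and Sp100 the groups did not overlap, but lasered library 4 stood close to the unlasered libraries, and the log2 fold changes were 1.15 ± 0.31 (limma, adjusted p = 0.0618) and 0.67 ± 0.24 (limma, adjusted p = 0.136). Of the 50-base windows of Phf11b, 47.0% occur in other genes, most often Phf11a. Trim30a, an inhibitor of Toll-like receptor signalling, spanned 91.4 to 121 CPM in the unlasered and 118 to 224 CPM in the lasered libraries, with a log2 fold change of 0.78 ± 0.22 (limma, adjusted p = 0.068). No member of the PARP9 and DTX3L group, an ADP-ribosyltransferase and ubiquitin ligase pair with its relative PARP14, was called. Parp9, Dtx3l and Parp14 had log2 fold changes of 0.44, 0.52 and 0.27 with overlapping groups, and unlasered library 3 was the highest unlasered library in each.

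Of 5 small or otherwise unrelated inducible proteins, 2 rose. Ifi27l2a (ENSMUSG00000079017, chromosome 12, 103442167 to 103443680), a small hydrophobic protein, had, with Oas3, one of the largest changes among the members, with 46.6, 48.7 and 28.6 CPM in the unlasered and 250.2, 215, 122 and 91.0 CPM in the lasered libraries. That is a 4.10-fold difference of means and 1.93 ± 0.35 (log2 fold change ± SE, limma, adjusted p = 0.0168). Oas3 stood above Ifi27l2a in 4 of the 16 alternative fits, with a pseudocount of 0.1 (1.99 against 1.96), without unlasered library 3 (2.24 against 1.70), without lasered library 2 (1.84 against 1.78) and without lasered libraries 1 and 2 (1.39 against 1.37). The highest unlasered library of Ifi27l2a lay far below the lowest lasered library. Xaf1 (ENSMUSG00000040483, chromosome 11, 72301629 to 72313733), an antagonist of the apoptosis inhibitor XIAP, was measured at 27.8, 33.3 and 25.4 CPM in the unlasered and 64.7, 64.1, 48.6 and 46.5 CPM in the lasered libraries, a log2 fold change of 0.93 ± 0.17 (limma, adjusted p = 0.0196). Ifi35, a regulator that can also act as a danger signal outside the cell, stood at 43.8, 47.7 and 44.3 CPM in the unlasered and 58.8, 67.0, 49.5 and 52.8 CPM in the lasered libraries. The Ifi35 groups did not overlap, and the log2 fold change of 0.32 ± 0.14 (limma, adjusted p = 0.227) was not called. Rtp4, a chaperone of membrane receptors, had 270.5, 219.9 and 179 CPM in the unlasered and 302, 324, 295 and 213 CPM in the lasered libraries, partly from reads listed jointly with Gm45338, and a log2 fold change of 0.35 ± 0.19 (limma, adjusted p = 0.306). Lasered library 4 of Rtp4 lay below unlasered libraries 1 and 2. Ifi44, a cytoplasmic protein, spanned 1.33 to 3.74 CPM in the unlasered and 1.83 to 11.5 CPM in the lasered libraries, with a log2 fold change of 1.16 and an adjusted p of 0.191 in limma.

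**Figure D3:**
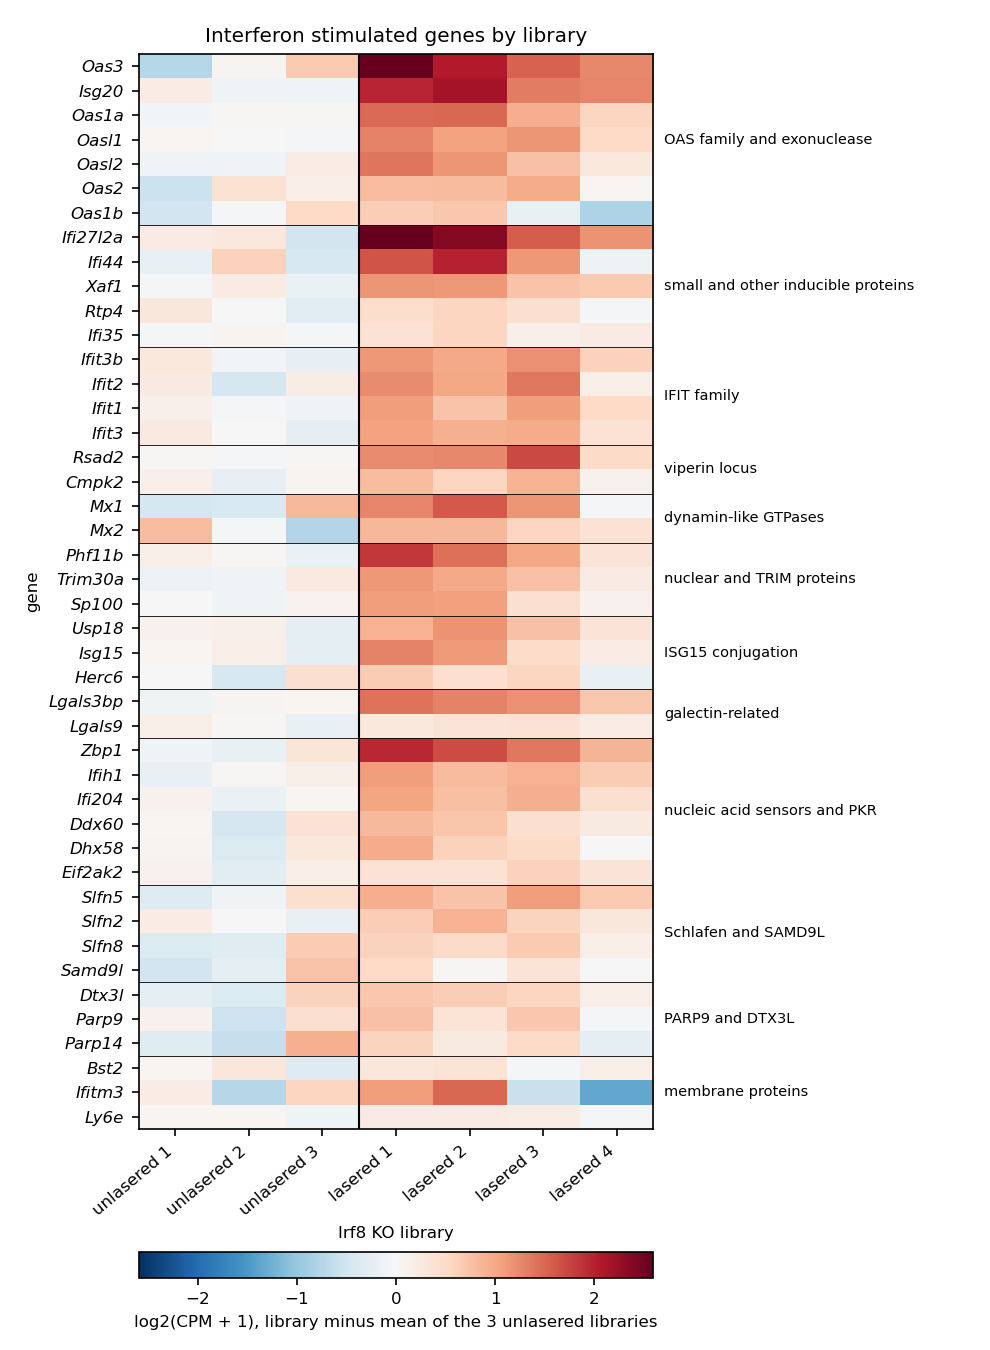
Difference of log2(CPM + 1) from the mean of the 3 unlasered libraries for each of the 44 genes (rows, grouped by role) and each of the 7 libraries (columns), in red where higher and blue where lower. Lasered library 4 is the palest of the lasered columns and the lowest of them for 42 of the 44 genes.

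The lasered libraries differed among themselves in most members. Relative to the unlasered mean, the median log2 difference over the 44 members was 1.04 in lasered library 1, 0.88 in library 2, 0.76 in library 3 and 0.22 in library 4, compared with 0.05, -0.05 and 0.07 in unlasered libraries 1 to 3. The SD of the 4 lasered medians was 0.353. Of the 44 members, 41, 40, 37 and 24 lay above every unlasered library in lasered libraries 1 to 4. The share of all genes was counted for the 4 lasered libraries together (10.4%) and not for single libraries. These 4 counts therefore have no share of all genes to be read against. Lasered library 4 was the lowest lasered library for 42 members and library 3 for the other 2, whereas the highest was library 1 for 21, library 2 for 13 and library 3 for 10. In library 3, with a member median of 0.76, the monocyte and dendritic cell sums of 32.8 and 53.7 CPM lay within the unlasered range. However, Ccr2, Ccr7 and Cd209a were each above every unlasered library there. The 2 libraries with the highest monocyte and dendritic cell sums, lasered 1 and 2, also had the highest medians of the members. The part of these cells in the member levels was not tested. The rod photoreceptor sum moved the other way between groups, and its part was not tested either.

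**Figure D4:**
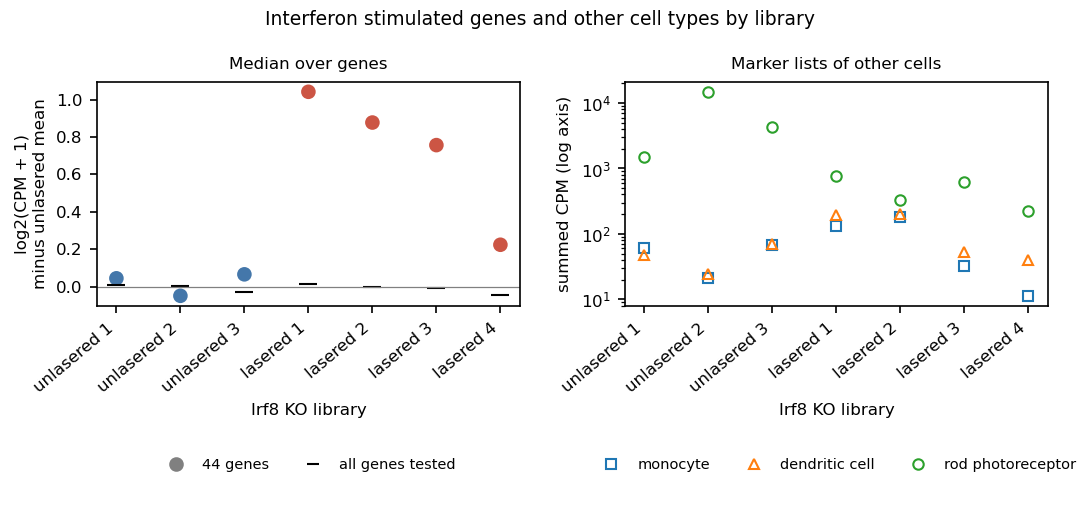
Left, median over the 44 genes of log2(CPM + 1) minus the unlasered mean in each library, with dashes for the median over all genes tested. Right, summed CPM (log axis) of the monocyte, dendritic cell and rod photoreceptor marker lists in the same libraries, where the median of the 44 genes was 1.04 in lasered library 1 and 0.22 in lasered library 4 and the dendritic cell sum was highest in lasered libraries 1 and 2.

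In the wider pathway, 54 genes of 8 lists were in the table, 43 were tested and 5 were called higher, against 3.86% of all genes, with none lower. The interferon genes themselves were near the limit of detection. Of 18 type I ligand genes 7 were in the table, none reached the level needed for a test, and no library held more than 7 reads of any of them. Ifnb1 had 0 reads in every library, so any level lies under the floor of 3 reads, which was 0.0653 to 0.147 CPM. Ifng, the type II ligand, had at most 2 reads. None of the 10 receptor and JAK-STAT genes was called. Among them, Stat2 stood at 47.8, 38.9 and 67.0 CPM in the unlasered and 80.8, 81.7, 62.5 and 50.6 CPM in the lasered libraries. Irf9 was measured at 124, 124 and 112 CPM in the unlasered and 135, 144, 148 and 112 CPM in the lasered libraries. Their log2 fold changes were 0.43 and 0.16, with overlapping groups and adjusted p-values of 0.306 and 0.528 in limma.

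Irf7, the regulatory factor that amplifies the type I response and is itself interferon stimulated, had 70.9, 85.5 and 74.1 CPM in the unlasered and 337, 316, 239 and 206 CPM in the lasered libraries. It rose by 1.80 ± 0.18 (log2 fold change ± SE, limma, adjusted p = 0.00265), and the lowest lasered library lay far above the highest unlasered one. With lasered libraries 1 and 2 left out, Irf7 was the one pathway gene still called, with a log2 fold change of 1.52 and an adjusted p of 0.0470 in limma, against a range of 3.86e-18 to 0.0708 over all fits of this gene. Of 8 negative regulators, 2 rose. Socs3, a feedback inhibitor of cytokine receptors, stood at 68.4, 59.9 and 92.3 CPM in the unlasered and 164, 166, 126 and 134 CPM in the lasered libraries, a log2 fold change of 1.01 ± 0.18 (limma, adjusted p = 0.016). Trex1, an exonuclease that clears cytosolic DNA, stood at 101, 106 and 97.2 CPM in the unlasered and 147, 171, 151 and 132 CPM in the lasered libraries, a log2 fold change of 0.55 ± 0.13 (limma, adjusted p = 0.0355). Both were higher in all 4 lasered than in all 3 unlasered libraries. Without lasered library 2 Socs3 was no longer called (limma, adjusted p = 0.0562, against 5.91e-06 to 0.159 over its 16 alternative fits), and Trex1 was called in 2 and Ccl12 in 1 of the 7 fits that left out a single library. Of the 5 chemokine genes 3 were tested and 2 rose. Ccl5, a chemokine that attracts T cells and monocytes, had 2.59, 5.93 and 2.55 CPM in the unlasered and 30.6, 29.4, 15.5 and 14.6 CPM in the lasered libraries and the largest log2 fold change of the pathway genes called, 2.32 ± 0.34 (limma, adjusted p = 0.00947). Ccl12, a ligand of CCR2 on monocytes, had 81.9, 68.8 and 68.1 CPM in the unlasered and 143, 157, 157 and 88.3 CPM in the lasered libraries and a log2 fold change of 0.86 ± 0.21 (limma, adjusted p = 0.0425). No gene was called among 11 tested sensors and adaptors or 4 partners of ISG15 and the synthetases. Irf1, named here after its values were seen, was lower in every lasered than in every unlasered library, with 172, 172 and 151 CPM in the unlasered and 119, 118, 132 and 127 CPM in the lasered libraries and a log2 fold change of -0.41 ± 0.11 (limma, adjusted p = 0.0661), which was not called.

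**Figure D5:**
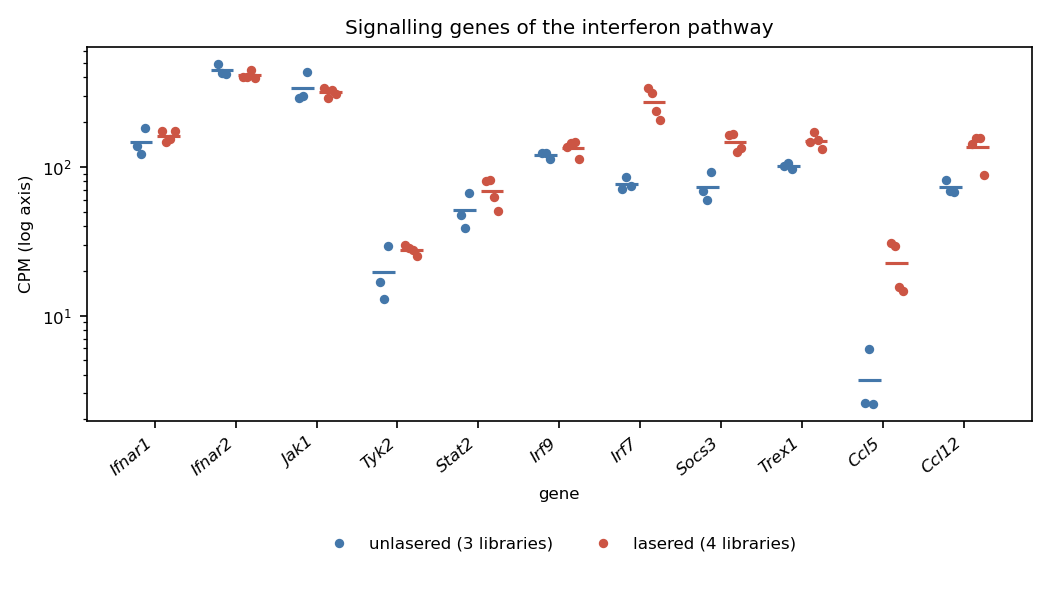
Level in CPM (log axis) of receptor, JAK-STAT, regulatory and chemokine genes of the interferon pathway, with 1 point per library and a bar at the group mean, for 3 unlasered (blue) and 4 lasered (red) libraries. Irf7, Socs3, Trex1, Ccl5 and Ccl12 separate the groups, while Ifnar1, Ifnar2, Jak1, Tyk2, Stat2 and Irf9 overlap.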

How the data were processed

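RNA was measured by RNA-seq with a full-length cDNA kit that does not keep strand, so reads of overlapping genes on opposite strands, which concern 8 members, cannot be told apart. The authors removed adapters and duplicate reads (cutadapt, FastUniq), mapped with Bowtie2 to GRCm38, counted them with HTSeq on genes of Ensembl annotation 90, and normalised in DESeq2 to values headed TPM. The deposited values are CPM: all values of a library are multiples of a common step that does not depend on gene length, and whole reads were recovered for 100% of values (tolerance 0.1 read).

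Log2(CPM + 1) was fitted with limma 3.58.1 in R 4.3.3 (trend, robust, statmod 1.5.0), two-sided, over the 17496 genes that reached 1 CPM in 3 or more libraries, and adjusted over all of them with the Benjamini-Hochberg method at 0.05. A fold change on this scale understates the change of low genes. Levels are CPM, and SE and 95% intervals come from limma. Floors of 3 reads cover counting error only. Marker sums were given without a call. On simulated reads with 200 genes changed by a factor of 2, limma recovered 40.0% of them (3.61% of calls false), and for a factor of 4, 97.0% (2.02% false). With DESeq2, 9.48% and 13.3% of the calls were false at these factors, and with edgeR 2.33% and 3.96%. The simulated reads were drawn independently for each gene and library. They lack the differences between lasered libraries that many genes share here, so these shares need not hold for the real libraries.

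The members, their roles and all lists were chosen with earlier results of these data known. Values in every library are given for members with an adjusted p under 0.05, members without overlap whose mean reached 10 CPM in either group, the 5 with the highest mean, members with 1 lasered library apart, and called pathway genes. Stat2, Irf9 and Irf1 were named after their values were seen, and the values of pathway genes that the text does not name are not reported here. Coordinates are those of GENCODE M21 (GRCm38), which held all 44 members. Shares of 50-base windows found in other genes were counted over its transcripts. Of the 37 promoter windows, 33 had bases just after the start inside a GENCODE transcript of the same gene. Tables and plots were made in Python 3.11.15 (matplotlib 3.10.9, numpy 2.4.6, pandas 2.3.3, scipy 1.17.1).

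Alternatives were a pseudocount of 0.1, no filter, a mean of at least 10 reads, median-of-ratios scaling, limma without robust, the replicate number as a block, edgeR 4.0.16 and DESeq2 1.42.0 on recovered reads, leaving out single libraries, p-values without adjustment, and a log2 fold change over 1.5 with a mean of at least 100 CPM. The 13 members with no promoter entry were left out of the motif counts.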

Additional observations from a re-analysis of the deposited data

Results flagged for a closer look

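Among 49 levels examined in the 4 lasered libraries (44 members and 5 called pathway genes), 2 had a library lying apart from the other 3, and chance gives about 1 in 20. Eif2ak2 in lasered library 3 had 37.7 CPM, above the other lasered libraries, which lay between 31.1 and 32.1 CPM. Ly6e in lasered library 4 had 2003 CPM, below the other lasered libraries at 2395 to 2426 CPM and inside the unlasered range.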

How the results depend on the processing

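All 16 alternative fits gave 40 of the 44 members a positive log2 fold change, and the exceptions Oas1b, Ifitm3, Parp14 and Samd9l were called in none. The sign turned negative for Oas1b without lasered libraries 1 and 2 (-0.49), without lasered library 1 (-0.09), without lasered library 2 (-0.12) and without unlasered library 1 (-0.16), for Ifitm3 without lasered libraries 1 and 2 (-0.96), without lasered library 1 (-0.14), without lasered library 2 (-0.28) and without unlasered library 2 (-0.21), for Parp14 without unlasered library 2 (-0.034) and for Samd9l without unlasered library 1 (-0.016). With a single library left out their highest values were 0.38, 0.67, 0.73 and 0.60.

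Counts of members called higher (15) became 25 with DESeq2, 6 with no filter on low values, 0 with lasered libraries 1 and 2 left out, 29 with unadjusted p-values, 1 with the thresholds of log2 fold change over 1.5 and mean of at least 100 CPM (0.126% of all genes), and 2 to 22 with a single library left out. The lowest of these was without lasered library 2 and the highest without lasered library 4. All genes called higher (676) became 1177 with DESeq2, 212 with no filter and 10 with lasered libraries 1 and 2 left out, and genes called lower (537) became 1141, 173 and 14. With a single library left out they ranged from 150 to 815 higher and 114 to 433 lower. Pathway genes called higher (5) became 9 with DESeq2, 3 with no filter, 1 with lasered libraries 1 and 2 left out and 2 to 8 with a single library left out, and pathway genes called lower (0) became 2 with DESeq2 and 0 to 2 with a single library left out. The causes were not tested.

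Deviations of same-numbered libraries correlated at -0.183, -0.126 and -0.023, and 0 of 3 unlasered libraries correlated best with their own number. The labels do not say whether the replicate numbers pair samples, and correlations over so few libraries cannot decide it. With the replicate number as a block, 0 members (35 higher at an unadjusted p under 0.05, against 10.5% of all genes), 2 genes higher, 1 lower and 0 pathway genes were called. Lasered library 4 has no partner in that fit. The ligand genes had 0 to 7 reads in a library, too few to be tested.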
